A study of Mus musculus with 6 samples.

Results

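Collagens, laminins and other proteins of the extracellular matrix were followed in the mouse tibialis anterior, which lies along the front of the lower leg, 48 h after contractions. The 81 probe sets were chosen by gene symbol alone, from the array's platform annotation. They are every probe set assigned to a single gene that encodes a collagen chain, a laminin chain, a fibulin, a fibrillin or a thrombospondin, or that is one of 12 matrix genes fixed by name. Of those 12, Spp1 was not analysed here. The 81 probe sets represent 56 genes, out of 10833 single-gene probe sets for 8251 genes on the array. By role they comprise 13 probe sets for fibrillar collagens, 26 for basement membrane chains, 20 for other collagens, 8 for elastic fibre and microfibril proteins, 7 for proteoglycans and 7 for matricellular and adhesive glycoproteins.

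The eccentric pool came from muscles given 50 eccentric contractions, which stretch a muscle while it is active, and the isometric pool from muscles given 50 isometric contractions, made at a constant length. Muscles of the opposite legs made up the control pool, and these contracted only as often as a measurement of isometric torque needs. Each pool held RNA of 4 animals and was split onto 2 Affymetrix MGU74Av2 arrays, lettered A and B, so each group was 1 biological sample and the spread between its arrays covers labelling and hybridisation only. Strain, sex and age of the animals were not stated, nor which exercised animals supplied the control legs.

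The matrix of skeletal muscle surrounds each fibre with a basement membrane of type IV collagen and laminins, and binds fibres and fascicles together with fibrillar collagens of types I, III and V. Small leucine-rich proteoglycans such as biglycan and decorin sit on the collagen fibrils and regulate their assembly, while the large proteoglycan versican holds hyaluronan and water in loose, provisional matrix. Most of these proteins are made by fibroblasts, endothelial cells and muscle fibres themselves, and the matrix is remodelled after injury.

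Array medians lay between a signal of 187 and 197, and 59.2% to 61.2% of all probe sets on each array lay above a floor of 120.8, the 40th percentile of all values. The log2 ratio of 3′ to 5′ beta-actin signal, a sign of RNA integrity, was 0.43 and 0.45 on the eccentric arrays, 0.14 and 0.28 on the isometric arrays, and 0.0073 and 0.066 on the control arrays. The log2 ratio for Gapdh was 0.12 and 0.13 (eccentric), -0.070 and 0.27 (isometric), and -0.053 and -0.068 (control). The 18S rRNA signal differed within pools, at 1832 on isometric A and 24124 on isometric B, and at 18954 on control A and 4841 on control B. Of 19 probe sets for muscle fibre genes, 3 lay at or below the floor on both eccentric arrays, 2 on both isometric arrays and 2 on both control arrays. Among matrix probe sets above the floor, the log2 difference between arrays A and B had an SD of 0.24 over 49 eccentric probe sets, 0.27 over 47 isometric and 0.36 over 48 control ones.

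Of the 81 matrix probe sets, 45 lay above the floor on all 6 arrays, 19 on some arrays and 17 on none. For 8 genes, namely Col4a3, Col4a4, Col4a5, Col11a2, Col17a1, Col22a1, Lamb3 and Nid1, no probe set exceeded the floor on any array. To count as measured in a comparison, a probe set had to exceed the floor on the 2 arrays of either pool. A call of higher or lower required a gap of at least 1 between the pools' mean log2 signals (2-fold), with values below the floor raised to it, and the same sign in all 4 pairs of arrays across the pools. Because each group was 1 pool, contraction types have no p-value here.

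Eccentric and control muscle were compared first, for what differed in matrix transcripts after lengthening contractions. Type III and type V collagen chains (Col3a1 and Col5a2), biglycan, versican, fibulin-1 and thrombospondin-3 were higher in the eccentric pool on at least 1 probe set each. The type I collagen chains Col1a1 and Col1a2 were not, and their log2 differences ran from -0.41 to -0.082. Of the 52 measured matrix probe sets, 6 were called higher (5.00% of 6744 single-gene probe sets measured), 1 was called lower (1.13% of them) and 45 were not called. Their median log2 difference was 0.23, against -0.024 over all measured probe sets. Arrays of the 2 pools did not overlap for 40 of the 52, 28 with the eccentric pool higher and 12 with it lower, against 61.4% of all measured probe sets. In whole muscle, more cells of a matrix-producing type and more RNA per cell cannot be told apart.

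**Figure D1:**
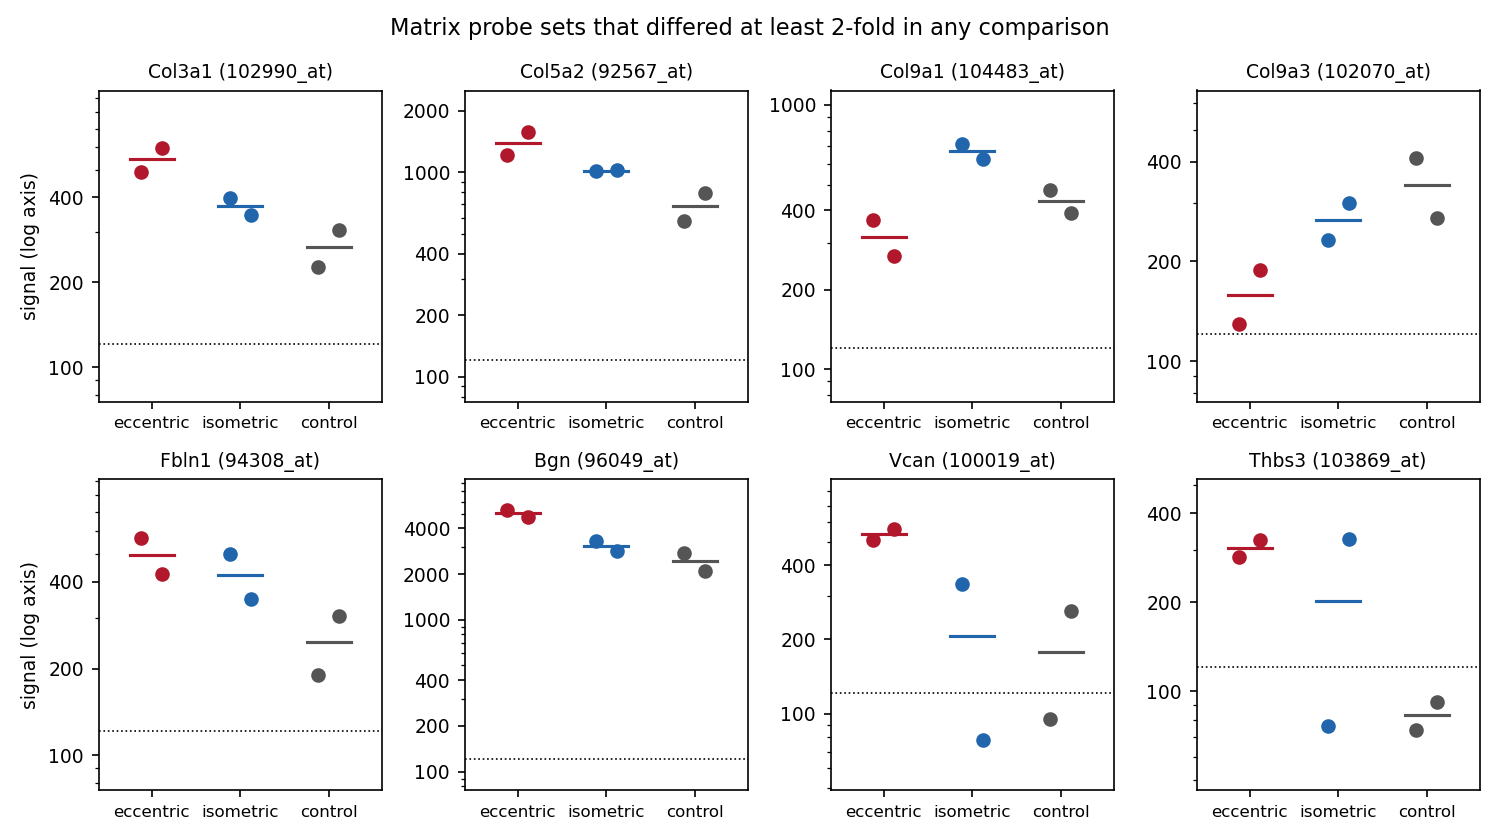
Signal on a log axis of the 8 matrix probe sets that differed at least 2-fold in any comparison, on eccentric, isometric and control arrays. Points are the 2 arrays of each pool (A left, B right), bars are their mean and the dotted line is the floor of 120.8. Eccentric points stand above both control points in 6 panels (Col3a1, Col5a2, Fbln1, Bgn, Vcan and Thbs3) and below them in the panels of Col9a1 and Col9a3.

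Among the fibrillar collagens, Col3a1 encodes the chain of type III collagen, abundant in the connective tissue between fibres. On probe set 102990_at its signal was 493 and 597 on the eccentric arrays, 396 and 347 on the isometric arrays, and 227 and 307 on the control arrays. Both eccentric arrays lay above both control arrays, and the difference was 2.06-fold (log2 1.04). A second probe set of Col3a1, 98331_at, had 2687 ± 62.0 in the eccentric pool, 2333 ± 233 in the isometric pool and 1805 ± 97.1 in the control pool (SD over n = 2 arrays of 1 pool), a log2 difference of 0.57 between the eccentric and control pools. The third, 161984_f_at, had a log2 difference of 0.49, so all 3 were above 0 and 1 was called.

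Col5a2 encodes the alpha-2 chain of type V collagen, a minor fibrillar collagen that helps to start fibrils and sets their width. Its signal was 1213 and 1573 on the eccentric arrays, 1011 and 1030 on the isometric arrays, and 577 and 793 on the control arrays. The 3 pools did not overlap, and the eccentric pool was 2.04-fold higher than the control pool (log2 1.03). Col5a1, the partner chain of type V collagen, was not called on its 2 probe sets, with log2 differences of 0.28 and 0.42 for eccentric and 0.38 and 0.48 for isometric muscle, each against the control pool. Col3a1 and Col5a2 are adjacent protein-coding genes on mouse chromosome 1 in the RefSeq gene table.

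The chains of type I collagen, the main collagen of tendon and of the muscle's connective tissue sheaths, behaved otherwise. Col1a1 on 94305_at had 6834 and 6512 on the eccentric arrays, 11646 and 12344 on the isometric arrays, and 9478 and 8328 on the control arrays. The eccentric arrays lay below the control arrays and the isometric arrays above them, with log2 differences against the control pool of -0.41 and 0.43. Its other probe set, 103709_at, had 2460 and 2542 on the eccentric arrays, 2730 and 2676 on the isometric arrays, and 3029 and 2677 on the control arrays, log2 differences of -0.19 and -0.076. The isometric direction of Col1a1 thus depended on the probe set. Col1a2, the second chain of type I collagen, had 4634 ± 108 in the eccentric pool, 5402 ± 646 in the isometric pool and 4909 ± 259 in the control pool on 101130_at. Its log2 differences between the eccentric and the control pool were -0.082 on that probe set and -0.39 on 161156_r_at, and neither was called.

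Other fibrillar chains had low signals. Col2a1, the collagen of cartilage, lay below the floor on both eccentric arrays at 89.9 and 86.3, against 250 and 146 on the control arrays. With values raised to the floor the log2 difference was -0.66, the largest in size among the measured matrix probe sets that were not called between the eccentric and control pools. Col11a1 had no pool above the floor on both arrays.

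The proteoglycans held the largest positive difference of all matrix probe sets. Vcan encodes versican. Its signal was 509 and 561 on the eccentric arrays, 335 and 78.1 on the isometric arrays, and 94.8 and 261 on the control arrays. The eccentric arrays stood above the others, while the isometric and control arrays overlapped and each of those pools had 1 array below the floor. On floored values the eccentric pool was 3.01-fold above the control pool, with single array pairings from 0.96 to 2.22 on the log2 scale.

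Bgn encodes biglycan, a small leucine-rich proteoglycan that binds collagen. Its signal on 96049_at was 5284 and 4758 on the eccentric arrays, 3301 and 2835 on the isometric arrays, and 2764 and 2093 on the control arrays. The 3 pools did not overlap and the eccentric pool was 2.08-fold above the control pool. Its second probe set, 162347_f_at, had 1821 ± 80.5 in the eccentric pool, 1427 ± 77.1 in the isometric pool and 1171 ± 275 in the control pool, a log2 difference of 0.66 between the eccentric and control pools that was not called.

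Related proteoglycans did not pass the 2-fold rule. Dcn, encoding decorin, had 12909 and 11670 on the eccentric arrays, 9586 and 10995 on the isometric arrays, and 13228 and 13008 on the control arrays. Both exercised pools lay below the control pool without overlap, by log2 differences of -0.096 and -0.35 for the eccentric and the isometric pool. Lum, encoding lumican, had 1125 and 1219 on the eccentric arrays, 696 and 878 on the isometric arrays, and 783 and 1096 on the control arrays. The eccentric arrays exceeded the others (log2 0.34 against the control pool), while the isometric and control arrays overlapped. Fmod, encoding fibromodulin, had log2 differences of -0.20 for the eccentric and 0.025 for the isometric pool on 99152_at.

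Fibulins are calcium-binding glycoproteins of elastic fibres and basement membranes. The 4 probe sets of Fbln1, encoding fibulin-1, disagreed. On 94308_at the signal was 570 and 425 on the eccentric arrays, 501 and 348 on the isometric arrays, and 190 and 305 on the control arrays. Both exercised pools lay above the control pool, and the eccentric pool was 2.04-fold higher (log2 1.03). On 94309_g_at, which shares its annotated accession with 94308_at, the eccentric arrays had 579 and 599, the isometric arrays 550 and 502 and the control arrays 689 and 630, a log2 difference of -0.16 between the eccentric and control pools. A further probe set, 94307_at, had a log2 difference of 0.50, and 161628_r_at lay below the floor on all 6 arrays.

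Fbln2, encoding fibulin-2, had 3481 and 3478 on the eccentric arrays, 1510 and 2212 on the isometric arrays, and 2307 and 2285 on the control arrays. The eccentric arrays stood above the control arrays and the isometric arrays below them, with log2 differences against the control pool of 0.60 and -0.33. Eln, encoding elastin, had 1238 ± 27.9 in the eccentric pool, 1397 ± 1.95 in the isometric pool and 1077 ± 42.6 in the control pool on 92836_at, and was not called. Of the 5 measured probe sets of this class 1 was called higher in the eccentric against the control pool, against 5.00% of all measured.

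Among the matricellular and adhesive glycoproteins, Thbs3 encodes thrombospondin-3, a pentameric calcium-binding protein of the matrix. Its signal was 285 and 324 on the eccentric arrays, 76.0 and 326 on the isometric arrays, and 74.0 and 92.0 on the control arrays. Both control arrays lay below the floor, so the eccentric pool was at least 2.51-fold higher, and the isometric arrays lay on either side of the floor. Fn1, encoding fibronectin, which links cells to collagen, had 1529 and 1407 on the eccentric arrays, 1223 and 1374 on the isometric arrays, and 989 and 1055 on the control arrays. Both exercised pools exceeded the control pool without overlap, by log2 differences of 0.52 and 0.34, and neither was called. Sparc, encoding the collagen-binding protein osteonectin, and Postn, encoding periostin, had log2 differences of 0.16 and 0.24 in the eccentric pool. Thbs2, encoding thrombospondin-2, had one of -0.39 with overlapping arrays.

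No basement membrane probe set was called in any of the 3 comparisons. Those measured were 12 (eccentric against control), 13 (isometric against control) and 11 (eccentric against isometric). Over all measured probe sets 5.00%, 0.908% and 1.73% were called higher, and 1.13%, 0.363% and 0.631% lower. Among so few probe sets, no call is near those shares. Col4a1 and Col4a2 encode the chains of the common type IV collagen. Col4a1 had 3318 and 3436 on the eccentric arrays, 4110 and 4356 on the isometric arrays, and 2962 and 2801 on the control arrays. The isometric arrays were the highest and the control arrays the lowest, with log2 differences of 0.23 for the eccentric and 0.56 for the isometric pool. Col4a2 had 2341 and 2254 on the eccentric arrays, 2663 and 2720 on the isometric arrays, and 2412 and 1788 on the control arrays, so the eccentric and control arrays overlapped. Lama2, the laminin chain that anchors adult muscle fibres, had 332 and 372 on the eccentric arrays, 390 and 401 on the isometric arrays, and 520 and 499 on the control arrays. It was lower in both exercised pools without overlap, by log2 differences of -0.53 and -0.37. Lamc1, the gamma-1 laminin chain, had log2 differences of 0.58 and 0.56 on 161706_f_at, and its other probe set lay near or below the floor. Col18a1, whose C-terminal fragment is endostatin, had 5 probe sets, of which 2 were measured in the eccentric against the control pool, with log2 differences of 0.50 and -0.18.

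Of the other collagens, the chains of type VI collagen form beaded filaments next to the basement membrane. Col6a3 had 2882 and 3260 on the eccentric arrays, 2439 and 2550 on the isometric arrays, and 2185 and 1761 on the control arrays. The eccentric pool was 1.56-fold above the control pool and was not called. Col6a1 had log2 differences of 0.48 on both of its probe sets between the eccentric and control pools, while Col6a2, its neighbour on chromosome 10, was level on average (1127 ± 7.49 against 1137 ± 250), with overlapping arrays. Type IX collagen coats type II fibrils in cartilage, and its 3 chains differed in direction. Col9a2 had a log2 difference of 0.13 between the eccentric and control pools with overlapping arrays, Col9a1 one of -0.46 without overlap, and neither was called. Col9a3 had 129 and 188 on the eccentric arrays, 232 and 301 on the isometric arrays, and 410 and 270 on the control arrays on 102070_at. The eccentric arrays were the lowest without overlap, by a log2 difference of -1.09, the 1 lower call of the comparison. Of 6 probe sets for cartilage and bone markers, 5 lay at or below the floor on both eccentric arrays, 3 on both isometric arrays and 3 on both control arrays.

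**Figure D2:**
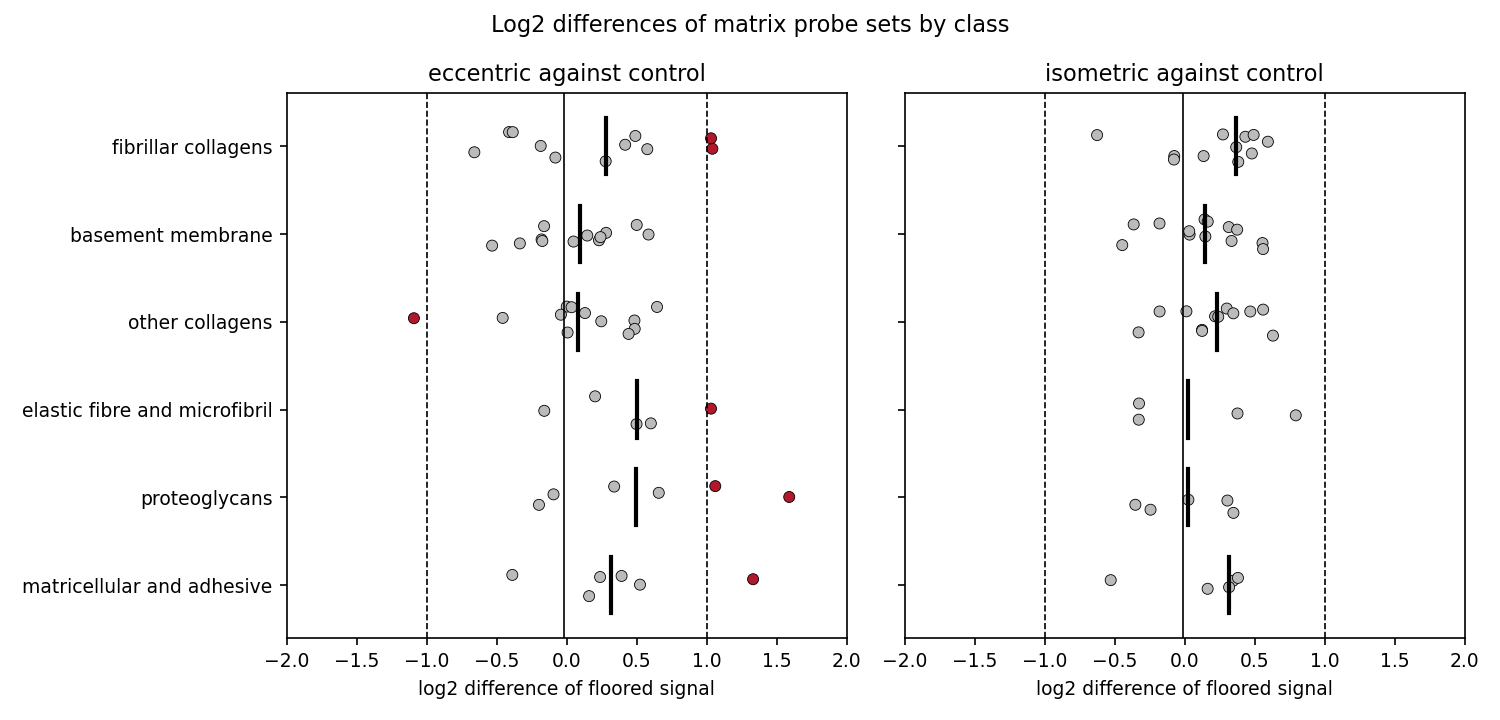
Log2 difference of each measured matrix probe set by class, for the eccentric (left) and the isometric (right) against the control pool. Coloured points were called, grey points were not, thick bars are class medians, the thin vertical line is the median of all measured single-gene probe sets and dashed lines mark 2-fold. Called points appear only in the left panel, 6 to the right of 1 and 1 to the left of -1.

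Probe sets of the same gene gave a check within the matrix list. Between the eccentric and control pools 9 genes had more than 1 measured probe set, and for 6 of these all had differences of one sign. The exceptions were Col18a1, Fbln1 and Lama5. For each of Bgn, Col3a1 and Fbln1 a single probe set was called, while the others of Bgn and Col3a1 had differences of the same sign. Between the isometric and control pools 5 such genes had one sign and 5 did not. Between the eccentric and isometric pools 7 had one sign and 1 did not. Agreement over all genes of the array with several probe sets was not tested. Of the 81 probe sets 20 carry a type letter in their name (10 f, 4 r, 3 s, 2 g and 1 i). Affymetrix used the letters to set such probe sets apart from plain ones. Some of these types are more open to signal from related transcripts, which was not tested here.

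**Figure D3:**
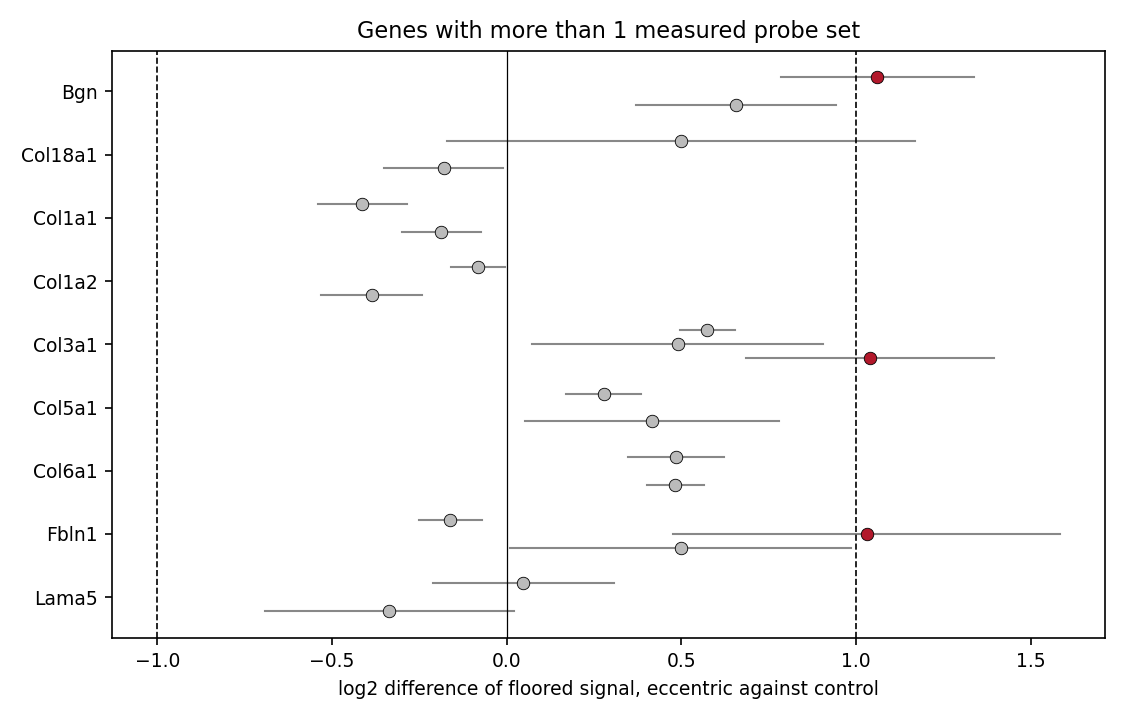
Log2 difference of the eccentric against the control pool for the 9 matrix genes with more than 1 measured probe set. Points are means of the 2 arrays of each pool, grey lines span the 4 array pairings, coloured points were called and dashed lines mark 2-fold. Both probe sets of Bgn and all 3 of Col3a1 lie above 0, both of Col1a1 and of Col1a2 lie below it, and those of Fbln1 lie on both sides.

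Leaving out 1 array ended several of these calls, with log2 differences of 0.69 to 0.98 in size remaining. Without control A the calls of Col3a1 (log2 0.82), Col5a2 (0.80), Fbln1 (0.69) and Col9a3 (-0.79) were lost, which left 3 higher and 0 lower, and the median of the measured matrix probe sets was 0.095. Without control B that of Bgn (0.86) was lost and Col2a1 was called lower (-1.05). Without eccentric A Bgn (0.98), Fbln1 (0.82) and Col9a3 (-0.82) were lost, and without eccentric B Col3a1 (0.90) and Col5a2 (0.84). Vcan and Thbs3 remained called with any 1 array left out, and with the floor at the 50th percentile Thbs3 (0.66) and Col9a3 (-0.80) were lost. Vcan and Thbs3 dropped out when all 4 arrays had to exceed the floor, which left 4 higher, and Col5a2 (0.99) was lost with quantile normalization, which left 5.

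At 1.5-fold, 9 of the 52 measured matrix probe sets were higher in the eccentric than in the control pool (11.9% of all measured probe sets) and 2 were lower (7.56%). limma was run on the 6 arrays, where its p-values reflect array-to-array spread within these pools and not animals. It called 3 of the 52 higher at an adjusted p under 0.05 (6.26% of all) and 0 lower (2.37% of all). The 3 were Bgn on 96049_at (adjusted p = 0.0282), Col3a1 on 102990_at (adjusted p = 0.0358) and Col5a2 (adjusted p = 0.0405). Each was higher on all 4 array pairings, as its 2-fold call had required. The other limma adjusted p-values were 0.0979 for Bgn on 162347_f_at, and 0.0706 and 0.300 for Col3a1 on 98331_at and 161984_f_at. Vcan had an adjusted p of 0.131 and Thbs3 one of 0.117 in that limma fit. Blocked by array letter it called 2 higher (3.94% of all), Bgn and Col5a2, and 0 lower (0.682% of all).

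Genes that act on the matrix were described from a list of 32 genes for collagen processing and cross-linking and one of 31 matrix receptors. Of 22 measured probe sets in the processing list 1 was called higher and none lower, at a median log2 difference of 0.099, a share near the 5.00% called higher over all measured probe sets. That was Lox, whose enzyme cross-links collagen, with 402 and 370 on the eccentric arrays, 160 and 206 on the isometric arrays, and 190 and 131 on the control arrays on one probe set. Its other probe set had a log2 difference of -0.41. Of 22 measured receptor probe sets 2 were called higher and none lower, at a median of 0.33, against 5.00% higher, 1.13% lower and a median of -0.024 over all measured probe sets. Ddr2, a tyrosine kinase receptor for fibrillar collagens, had 354 and 355 on the eccentric arrays, 221 and 284 on the isometric arrays, and 107 and 171 on the control arrays. The eccentric pool was 2.46-fold above the control pool on floored values. Sdc4, a heparan sulphate proteoglycan of the cell surface, was 2.04-fold higher on floored values. It had 298 and 295 on the eccentric arrays against 175 and 51.1 on the control arrays, 1 of these below the floor.

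Markers of other cell types moved in the same comparison. Over all 6744 measured probe sets 5.00% were called higher and 1.13% lower. Of 13 measured macrophage and monocyte probe sets 9 were called higher in the eccentric against the control pool. The summed signal of the 20 probe sets of that list was 17617 to 17704 on the eccentric arrays, 9773 to 10175 on the isometric arrays, and 5277 to 5472 on the control arrays, without overlap. Of 12 measured fibroblast probe sets 2 were called higher, S100a4 (4.33-fold) and Thy1 (2.05-fold), and the summed signal of all 13 was 9620 to 10048 on the eccentric arrays, 6723 to 7081 on the isometric arrays, and 5309 to 5684 on the control arrays. S100a4 is also made by macrophages, and it alone had 3614 and 4177 on the eccentric arrays, 1998 and 1851 on the isometric arrays, and 1059 and 760 on the control arrays, a large part of the difference in that sum. Vim, encoding the intermediate filament vimentin, had the lowest log2 difference of the list, -0.79, and was not called. For Pdgfra, the receptor that marks muscle fibroblasts, 1 of 3 probe sets had a log2 difference of 0.90, a second one of -0.32 and the other lay below the floor, and none was called. Of 6 measured probe sets for satellite cells and myoblasts 1 was called higher, Myog, a myogenic transcription factor, at 2.12-fold, and 5 were higher without overlap, with a list median of 0.33. Of 17 measured muscle fibre probe sets 0 were called, 16 lay below 0 and 14 were lower without overlap, with a median of -0.28. Over all 6744 measured probe sets 3519 lay below 0, at a median of -0.024. Without overlap, 2092 of these 6744 were lower and 2048 higher. Against the isometric pool 16 of 16 muscle fibre probe sets lay below 0, and 3182 of all 6653 measured. No probe set was called for endothelium (10 measured), smooth muscle and pericytes (6) or Schwann cells (5). For tendon 1 probe set was measured, Scx, with 825 and 851 on the eccentric arrays, 1273 and 657 on the isometric arrays, and 385 and 1910 on the control arrays, which overlapped. The part of these cell types, and of the difference in beta-actin ratio, in the matrix results was not tested.

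Isometric contractions, without lengthening, were set against the same control pool. No matrix probe set passed the 2-fold rule. Of 50 measured, 0 were called higher (0.908% of 6609 single-gene probe sets) and 0 lower (0.363% of them). The median log2 difference was 0.23, against -0.013 over all measured probe sets, and was 0.080 without control A. This median uses the same control arrays as that of the eccentric pool. Arrays did not overlap for 31 of the 50, 23 higher and 8 lower, against 37.8% of all measured probe sets.

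The largest differences in the isometric against the control pool were those of Fbln1 on 94308_at (log2 0.79), Col9a1 (0.63) and Col2a1 (-0.63). On 94309_g_at Fbln1 was lower in the isometric pool without overlap (-0.33), so its direction depended on the probe set. Col9a1, a chain of type IX collagen, had 709 and 627 on the isometric arrays against 475 and 391 on the control arrays. Col5a2 was 1.51-fold higher (log2 0.59) and Col4a1 had a log2 difference of 0.56. At 1.5-fold, 3 matrix probe sets were higher (3.83% of all measured), those of Fbln1, Col9a1 and Col5a2, and 1 was lower (2.75%), that of Col2a1. limma called 0 of the 50 higher (0.00% of all) and 0 lower (0.00%), with 12 at an unadjusted p under 0.05. Blocked by array letter it also called 0 in each direction (0.00%), with 7 unadjusted. Over all 6609 measured probe sets, 689 had an unadjusted limma p under 0.05, and 609 when blocked. Leaving out 1 array added at most 1 call in each direction, Thbs3 without isometric A (log2 1.43), Fbln1 without isometric B (1.06) or without control B (1.13), and Col2a1 without control B (-1.01).

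In this comparison 3 of 10 measured macrophage and monocyte probe sets and 1 of 12 for fibroblasts, S100a4, were called higher. Over all measured probe sets 0.908% were called higher and 0.363% lower. Of 21 measured probe sets each for collagen processing and for matrix receptors 0 were called. Their medians were 0.19 and -0.0083, against -0.013 over all measured probe sets.

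The exercised pools were then set against each other, for what differed with lengthening. Versican was higher and Col9a1, a chain of type IX collagen, was lower. Of 50 measured matrix probe sets 1 was called higher (1.73% of 6653 single-gene probe sets) and 1 lower (0.631% of them). The median log2 difference was 0.049, against 0.018 over all measured probe sets, and turned to -0.036 without isometric A and to -0.0082 with median scaling. Arrays did not overlap for 32, 15 higher and 17 lower, against 52.5% of all.

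Vcan was called higher at a log2 difference of 1.41, with 1 isometric array below the floor. Col9a1 had 366 and 269 on the eccentric arrays against 709 and 627 on the isometric arrays, a log2 difference of -1.09. Just outside the threshold stood Fbln2 at 0.93. Of 6 measured proteoglycan probe sets, 2 of them for Bgn, 5 were above 0, with a class median of 0.47. Of 11 measured basement membrane probe sets 7 were below 0, with a class median of -0.17. Over all measured probe sets 52.2% were above 0. Basement membrane arrays did not overlap for 6 of the 11 probe sets, a share near that of all measured probe sets. Over all of these 1615 of 3494 were lower in the eccentric pool, and so were the 6, namely Col4a1 (-0.33), Col4a2 (-0.23), Lama2 (-0.17), Col15a1 (-0.034) and both of Lamb1 (-0.31 and -0.35). Col1a1 on 94305_at was lower by a log2 difference of -0.85 without overlap.

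**Figure D4:**
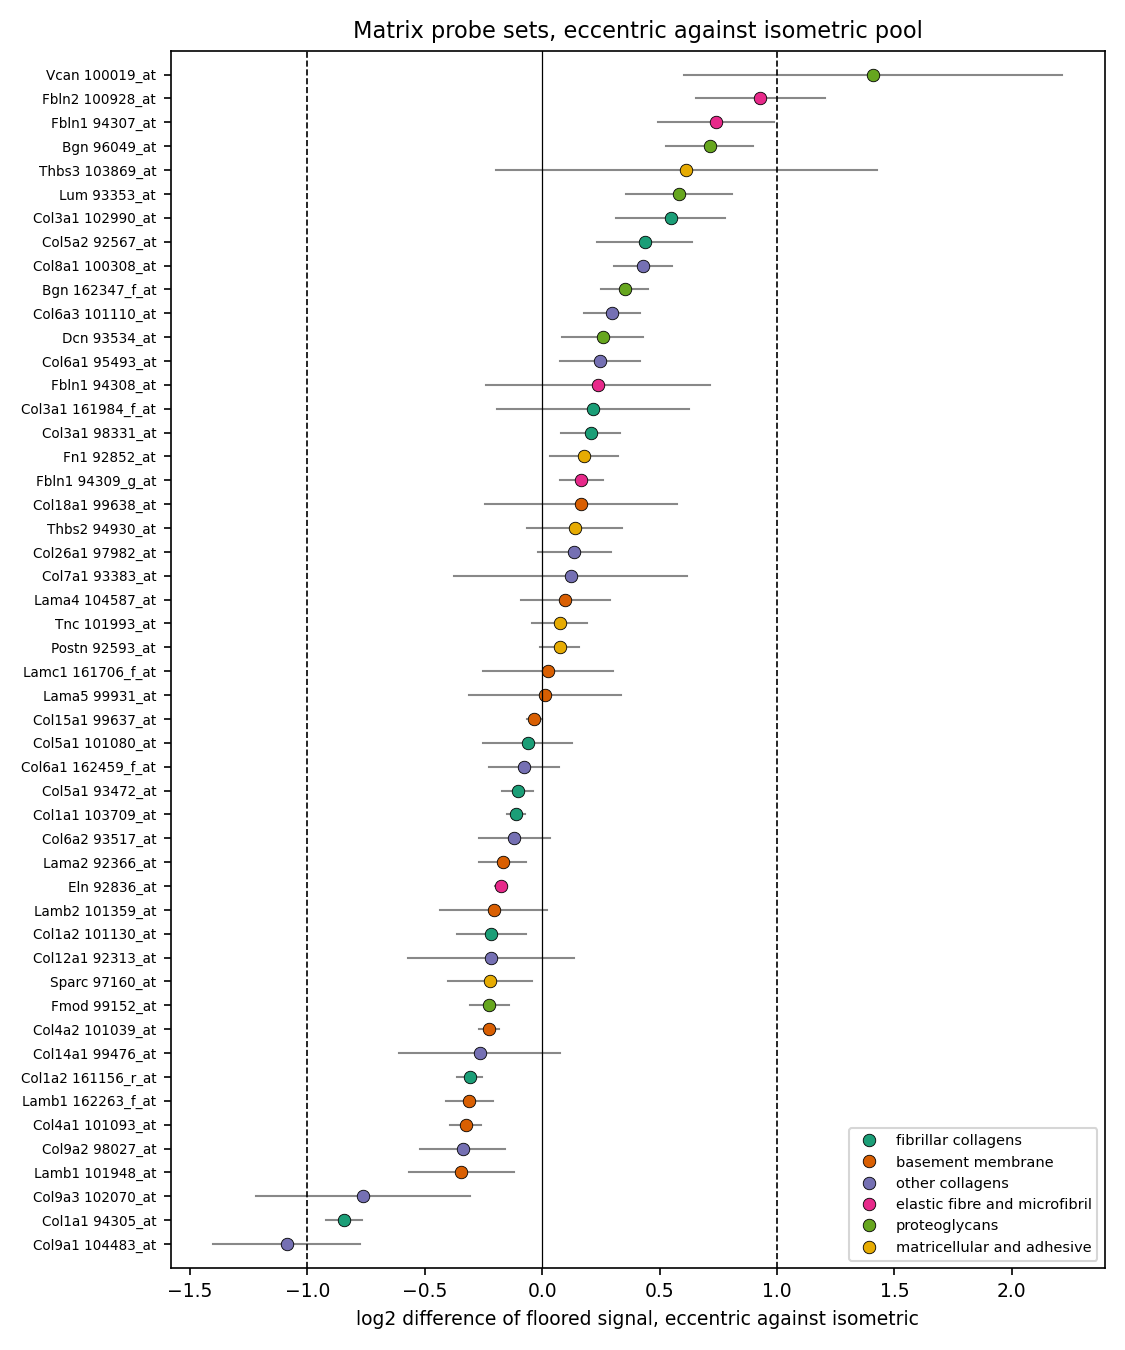
Log2 difference of the eccentric against the isometric pool for the 50 measured matrix probe sets, in order of size and coloured by class. Points are means of the 2 arrays of each pool, grey lines span the 4 array pairings and dashed lines mark 2-fold. Vcan stands highest at 1.41 and Col9a1 lowest at -1.09.

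At 1.5-fold, 4 matrix probe sets were higher (7.55% of all measured) and 3 lower (4.87%). The 4 were those of Vcan, Fbln2, Bgn and, on 94307_at, Fbln1, and the 3 those of Col9a1, Col1a1 and Col9a3. limma called 0 higher (0.992% of all) and 0 lower (0.210%), with 9 of 50 at an unadjusted p under 0.05. Blocked by array letter it called 0 higher (0.120%) and 0 lower (0.0150%), with 8 unadjusted. Over all 6653 measured probe sets, 1270 had an unadjusted limma p under 0.05, and 1148 when blocked. Without isometric B the call of Vcan was lost (log2 0.67) and Fbln2 (1.20) and Thbs3 (1.33, an isometric array at the floor) were called higher. Without eccentric B Col9a1 was lost (-0.86) and Col9a3 was called lower (-1.03). Of the macrophage and monocyte probe sets 6 of 13 were called higher in this comparison, and 1 of 12 for fibroblasts, again S100a4. The share over all measured probe sets was 1.73%.

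The promoters of members that differed were set beside one that did not, and beside a pair that share their start. Windows from 250 bases before to 50 after a RefSeq start (GRCm38.p6) were found for 38 of the 56 genes, 45 windows in all. Capitals mark the TATA box letters TATAAA, the CCAAT box letters CCAAT, the GC box letters GGGCGG and the AP-1 letters TGANTCA, searched on both strands, where matches of 1 motif may overlap. Vcan (chr13:89742463-89742762, minus strand), Bgn (chrX:73483351-73483650, plus strand) and Col3a1 (chr1:45311288-45311587, plus strand) were called higher in the eccentric against the control pool, and Col1a2 (chr6:4505368-4505667, plus strand) was not. Col4a1 (chr8:11312777-11313076, minus strand) and Col4a2 (chr8:11312555-11312854, plus strand) start 21 bases apart on opposite strands and their windows share 78 bases.
Vcan: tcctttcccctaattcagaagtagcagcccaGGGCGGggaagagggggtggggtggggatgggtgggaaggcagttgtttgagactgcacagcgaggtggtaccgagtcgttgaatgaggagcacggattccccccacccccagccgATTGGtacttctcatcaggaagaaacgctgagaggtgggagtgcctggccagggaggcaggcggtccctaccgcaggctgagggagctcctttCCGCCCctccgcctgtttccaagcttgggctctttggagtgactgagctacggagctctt
Bgn: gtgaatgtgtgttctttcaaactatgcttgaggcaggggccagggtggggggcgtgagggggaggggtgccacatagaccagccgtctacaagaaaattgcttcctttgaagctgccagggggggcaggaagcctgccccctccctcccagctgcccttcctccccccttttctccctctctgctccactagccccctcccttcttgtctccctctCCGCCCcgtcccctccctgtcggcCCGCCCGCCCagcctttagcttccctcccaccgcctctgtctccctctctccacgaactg
Col3a1: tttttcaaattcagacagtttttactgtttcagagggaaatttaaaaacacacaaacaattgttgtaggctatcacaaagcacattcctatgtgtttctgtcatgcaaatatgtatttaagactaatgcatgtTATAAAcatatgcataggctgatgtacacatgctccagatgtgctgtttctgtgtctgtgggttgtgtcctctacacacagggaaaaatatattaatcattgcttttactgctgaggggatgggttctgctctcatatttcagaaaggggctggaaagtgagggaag
Col1a2: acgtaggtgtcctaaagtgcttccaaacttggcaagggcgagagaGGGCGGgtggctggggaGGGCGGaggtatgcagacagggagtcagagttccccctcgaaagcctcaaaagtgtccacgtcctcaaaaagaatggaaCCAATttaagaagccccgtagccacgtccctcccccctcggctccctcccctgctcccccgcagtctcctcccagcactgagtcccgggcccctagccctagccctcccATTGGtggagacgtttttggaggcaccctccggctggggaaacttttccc
Col4a1: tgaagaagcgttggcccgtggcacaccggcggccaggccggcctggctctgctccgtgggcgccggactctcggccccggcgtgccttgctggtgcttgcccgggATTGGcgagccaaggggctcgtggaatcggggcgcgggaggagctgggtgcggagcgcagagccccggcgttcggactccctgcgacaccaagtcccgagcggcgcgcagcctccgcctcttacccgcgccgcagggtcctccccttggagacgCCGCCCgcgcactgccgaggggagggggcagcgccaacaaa
Col4a2: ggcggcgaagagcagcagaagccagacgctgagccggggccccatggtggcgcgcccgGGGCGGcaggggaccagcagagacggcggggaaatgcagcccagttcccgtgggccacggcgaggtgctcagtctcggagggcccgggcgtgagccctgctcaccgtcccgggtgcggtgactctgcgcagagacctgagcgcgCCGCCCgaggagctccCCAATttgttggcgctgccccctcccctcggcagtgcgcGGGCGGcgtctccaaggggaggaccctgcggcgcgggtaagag

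The window of Vcan held 2 GGGCGG and 1 CCAAT and that of Bgn 3 GGGCGG, the nearest pair of which overlap. That of Col3a1 held TATAAA, its first base 117 bases before the start, and none of the other motifs, and that of Col1a2 held 2 CCAAT and 2 GGGCGG. Over all 45 windows of matrix genes 9 held TATAAA (20.0%, against 13.6% of all 32851 windows), 16 held CCAAT (35.6% against 37.4%), 24 held GGGCGG (53.3% against 35.7%) and 1 held TGANTCA (2.22% against 7.81%). These are matches of letters and not binding sites, and the windows of Bgn and Col3a1, both called higher, had no motif in common.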

How the data were processed

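RNA of tibialis anterior muscle was hybridised to 6 Affymetrix MGU74Av2 arrays, 2 for each of 3 pools of 4 animals, per the labels. The authors deposited intensity signals, 1 per probe set and array, whose trimmed means were nearly equal (500.32 to 500.346), as they would be after scaling to one target. The scanner software, background correction and probe summary were not given in the sources used here, so how dim probes were treated before deposit is unknown.

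Each array was rescaled to the same mean after trimming 2% at each end, which changed values by factors of 0.999971 to 1.00002. Values below 120.8 were raised to it before log2 was taken, so differences of dim probe sets are understated. Folds are ratios of geometric means of the arrays. Probe sets were named by the platform annotation, and those with several genes were left out. All 81 gene IDs were found in the RefSeq table. Python 3.11.15, numpy 2.4.6, pandas 2.3.3, R 4.3.3 and limma 3.58.1 were used, and the scripts were tested on simulated data.

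Probe sets named in the text were those called in any comparison, the 3 with the largest difference and the 2 with the highest control signal in each class, other probe sets of the same genes, those next to the threshold, and in each list the called members or the 2 with the largest difference. Others named were chosen after their values were seen. The members, lists and comparisons were chosen with earlier results of these data known. The eccentric and the isometric pool were compared with the same 2 control arrays. The main comparisons did not treat the array letters as pairs. The correlation of A minus B between pools was -0.039, 0.033 and -0.14 over 5642 probe sets. These values cannot tell whether arrays of one letter were handled together. Having 2 arrays of 1 pool limits the precision, and p-values measure only the spread between arrays. Alternatives covered scaling, floor, filter, fold threshold, single arrays and limma.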

Additional observations from a re-analysis of the deposited data

Results flagged for a closer look

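For 3 matrix probe sets every eccentric array lay on one side of both control arrays and every isometric array on the other, a difference that was not tested. Col1a1 on 94305_at had a log2 difference between the eccentric and the isometric pool of -0.85, Col9a1 one of -1.09 and Fbln2 one of 0.93. Such opposite directions were seen in 3 of 45 matrix probe sets above the floor on all 6 arrays (6.67%), against 219 of 5642 single-gene probe sets (3.88%). The other probe set of Col1a1 did not show them.

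A probe set assigned to both Pald1 and Thbs1 was outside the matrix list because it has 2 genes. Its signal was 1416 and 1439 on the eccentric arrays, 865 and 544 on the isometric arrays, and 350 and 478 on the control arrays. The eccentric pool was above the control pool by a log2 difference of 1.80, and which of the 2 genes gave the signal was not tested.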

How the results depend on the processing

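Each group was 1 pool on 2 arrays, and probe sets near the floor carry the least precise differences. Leaving out 1 array in turn gave 3 to 5 higher and 0 to 2 lower in the eccentric against the control pool, with medians of 0.095 to 0.23 (log2). It gave 0 to 1 higher, 0 to 1 lower and medians of 0.080 to 0.26 in the isometric against the control pool, and 1 to 2 higher, 1 to 1 lower and medians of -0.036 to 0.035 in the eccentric against the isometric pool, negative without isometric replicate A. For the other settings the cause of a change was not tested.

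In the eccentric against the control pool, lower calls were 2 with the floor at the 30th percentile, 0 at the 50th percentile and 2 at 1.5-fold. The median was 0.16 with the floor at the 30th percentile and 0.00 with no filter. With no filter the median over all single-gene probe sets was also 0 in each of the comparisons. Probe sets below the floor on every array of both pools then enter with a difference of 0. Without both control A and isometric B there were 3 higher, 0 lower and a median of 0.095. limma gave 3 higher and 0 lower, and limma with the replicate block 2 higher and 0 lower.

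In the isometric against the control pool, 1.5-fold gave 3 higher and 1 lower. The median was 0.26 with median scaling, 0.18 and 0.27 with the floor at the 30th and 50th percentile, 0.025 with no filter, 0.27 over probe sets above the floor on all 4 arrays and 0.12 without both arrays. A crossed pairing of isometric and control arrays, chosen after seeing the data, gave 0 calls by limma. Of the 50 probe sets 13 had an unadjusted p under 0.05, against 714 of all 6609 measured.

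In the eccentric against the isometric pool, higher calls were 2 with the floor at the 30th percentile, 0 over probe sets above the floor on all 4 arrays, 4 at 1.5-fold, 2 without both arrays, 0 by limma and 0 by limma with the replicate block, and lower calls were 3 at 1.5-fold, 0 by limma and 0 with the replicate block. The median turned to -0.0082 with median scaling, and was 0.00071 with quantile normalization, 0.013 and 0.024 with the floor at the 30th and 50th percentile, 0.00 with no filter, 0.019 over probe sets above the floor on all 4 arrays and 0.00013 without both arrays.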
